A study of Homo sapiens with 27 samples.

Results

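The genes that make cholesterol and fatty acids were followed through 9 populations of 786-O cells. They were taken from a list of 28 named genes with textbook roles in these pathways. The list was drawn up with earlier results of these data known, so it is not independent of them. Of the 28 genes, 27 had a row in the deposited count table of 57773 identifiers, and all 27 were among the 17016 genes with enough counts to test. The remaining gene, ACACA, could not be matched to a row by the gene tables used and was not analysed here. 786-O is an established cell line from a clear cell renal cell carcinoma. Every population had been infected with lentiviruses that express spCas9 and 1 or 2 single guide RNAs and then selected with drugs, sgCtrl included. The 9 populations, each with 3 replicate libraries, were sgCtrl, 2 populations with a guide against KDM5C (sgKDM5C #4 and sgKDM5C #5), 2 with a guide against KDM5D (sgKDM5D #2 and sgKDM5D #4), all 4 called single mutant here, and the double mutant populations sgKDM5C #4/sgKDM5D #2, sgKDM5C #4/sgKDM5D #4, sgKDM5C #5/sgKDM5D #2 and sgKDM5C #5/sgKDM5D #4. KDM5C and KDM5D are the X-linked and Y-linked copies of a histone H3 lysine-4 demethylase. Both sgKDM5C guides cut in the same exon of KDM5C, whereas the sgKDM5D guides cut in different exons of KDM5D. All are pools of edited cells and not clones, and each guide or pair of guides appears here as 1 labelled population. Nothing in the sources used here says whether the 3 libraries of a population came from separate cultures, so the p-values measure the spread between these libraries, which may be technical.

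Cells build cholesterol from acetyl-CoA in the cytosol and the endoplasmic reticulum. Acetyl-CoA is joined and reduced to mevalonate, mevalonate is turned into isoprenoid units, these are condensed to squalene, and squalene is closed to lanosterol and trimmed to cholesterol. Fatty acids branch from the same acetyl-CoA through malonyl-CoA, fatty acid synthase, elongation and desaturation. Most of these genes share the transcription factors SREBP-1 and SREBP-2, the products of SREBF1 and SREBF2. When sterols are plentiful, INSIG proteins hold the escort protein SCAP and the SREBP precursors in the endoplasmic reticulum. When sterols fall, SCAP carries the precursors to the Golgi, where they are cleaved to their active form. Clear cell renal carcinoma takes its name from cytoplasm that is rich in stored lipid and glycogen.

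The libraries held between 20172482 and 43383929 counts, with a median of 26290323. Levels are given as CPM (counts per 1000000, scaled with the TMM factors of edgeR). KDM5C mRNA was 124 ± 7.28 CPM in sgCtrl (SD, n = 3), and its log2 fold change was between -1.91 and -1.51 in the 6 populations labelled with an sgKDM5C guide. KDM5D mRNA, in contrast, was 12.8 ± 1.58 CPM in sgCtrl (SD, n = 3) and higher in all 8 mutant populations, at means of 19.9 to 44.6 CPM, those labelled sgKDM5D included. A small edit need not lower the mRNA, and the sgKDM5D labels therefore have no check in these counts and are used below as given. The renal epithelial markers PAX8 (254 to 392 CPM) and KRT8 (490.5 to 1040 CPM) were present in every library, and PTPRC, the pan-leukocyte gene, stayed at or under 0.568 CPM. Of the 4 fibroblast markers, COL1A1 lay between 2.47 and 16.7 CPM, LUM between 0.309 and 3.84, COL3A1 at or under 0.693 and DCN at or under 0.270 CPM. Replicate 2 of sgCtrl, replicate 2 of sgKDM5C #5, replicate 1 of sgKDM5C #4/sgKDM5D #2 and replicate 3 of sgKDM5C #4/sgKDM5D #4 stood apart from their own populations at the positive end of the first principal component of the deviations, which carried 41.0% of that variance. Results that rest on these 4 libraries are given without them below. Only that end was used for the choice. At the other end, replicate 1 of sgKDM5C #5 (-11.9) and replicate 1 of sgCtrl (-11.4) lay farther out than replicate 3 of sgKDM5C #4/sgKDM5D #4 (11.2), and were kept.

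Per kilobase of exonic length, the genes spanned a wide range of levels in sgCtrl. ATP citrate lyase (ACLY), which supplies the acetyl-CoA, stood at the top with 133 ± 8.82 CPM per kb (SD, n = 3). EBP, an isomerase late in sterol synthesis, followed with 60.6 ± 7.67, and fatty acid synthase (FASN) with 50.7 ± 1.78 CPM per kb. The rate-limiting enzyme of desaturation, SCD, was in the middle of the order with 19.6 ± 7.23 CPM per kb, a level that its neighbours FDPS (19.5 ± 3.52) and HMGCS1 (20.04 ± 3.76) matched within their spread. SREBF2 (27.3 ± 3.06) was higher than SREBF1 (7.09 ± 1.28 CPM per kb). At the low end stood CYP51A1 (1.12 ± 0.242) and the sterol reductase TM7SF2 (0.444 ± 0.0465 CPM per kb), and the latter had 21 to 78 counts per library. Exonic length here is the union of all annotated exons, which lowers the value of genes with long or retained-intron transcripts.

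**Figure D1:**
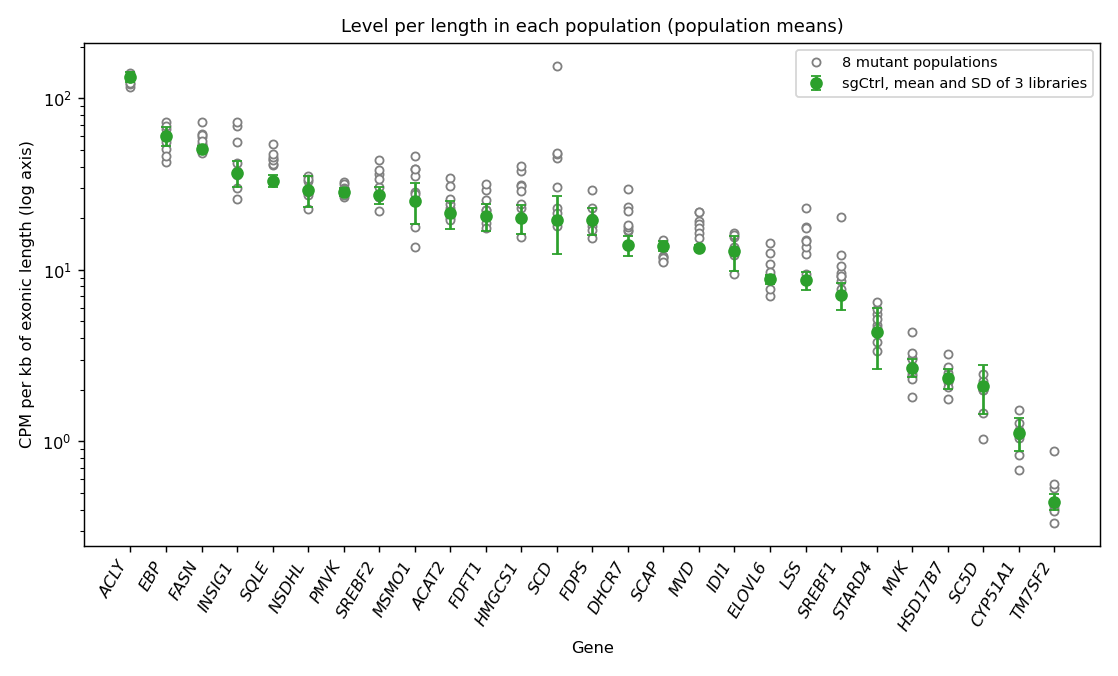
Population means in CPM per kilobase of exonic length (vertical log axis) for each of the 27 genes (horizontal axis), with sgCtrl as filled points with the SD of 3 libraries and the 8 mutant populations as open points. ACLY stands highest and TM7SF2 lowest in sgCtrl, and the single open point far above its column is SCD in sgKDM5C #5/sgKDM5D #2.

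The first question was whether the pathway as a whole moved when KDM5C, KDM5D or both were targeted. A gene was called when its adjusted p was under 0.001 and its change over 1.5-fold, the thresholds of the study, and is said to rise or fall when its adjusted p was under 0.05 whatever its size. The share of all tested genes that met the same rule is given in brackets. In sgKDM5C #4, 3 of 27 were called higher (3.21% of all genes tested) and 0 called lower (1.77%), and at an adjusted p under 0.05 9 rose (12.3%) and 1 fell (11.6%). The called genes were MVD, SQLE and LSS. In sgKDM5C #5, 0 of 27 were called higher (2.03% of all genes tested) and 0 called lower (2.97%), and at an adjusted p under 0.05 1 rose (9.89%) and 1 fell (11.5%). In sgKDM5D #2, 0 of 27 were called higher (1.89% of all genes tested) and 0 called lower (1.34%), and at an adjusted p under 0.05 10 rose (11.5%) and 1 fell (10.6%). In sgKDM5D #4, 3 of 27 were called higher (10.7% of all genes tested) and 0 called lower (7.44%), and at an adjusted p under 0.05 7 rose (24.4%) and 2 fell (23.2%), and the called genes were ACAT2, LSS and ELOVL6. The called share in sgKDM5D #4, 11.1% of the members, was near the share of all genes. The share that rose in sgKDM5C #4 was 33.3% and in sgKDM5D #2 37%, both above that of all genes with all libraries in the fit. These counts turned on single libraries as well. In sgKDM5D #2, 3 rose without replicate 1 of sgCtrl, 5 without its replicate 2 and 4 without replicate 2 of sgKDM5D #2, in place of 10. In sgKDM5C #4, 5 rose without its replicate 2 or its replicate 3, in place of 9, and in sgKDM5D #4 4 rose without its replicate 3, in place of 7.

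In sgKDM5C #4/sgKDM5D #2, 0 of 27 were called higher (3.83% of all genes tested) and 0 called lower (2.23%), and at an adjusted p under 0.05 3 rose (13.0%) and 3 fell (11.9%). In sgKDM5C #4/sgKDM5D #4, 0 of 27 were called higher (5.86% of all genes tested) and 0 called lower (3.24%), and at an adjusted p under 0.05 2 rose (17.3%) and 3 fell (18.5%). Of the 8 populations, sgKDM5C #5/sgKDM5D #2 had the most called members. There 6 of 27 were called higher (7.92% of all genes tested) and 0 called lower (4.77%), and at an adjusted p under 0.05 15 rose (21.5%) and 1 fell (23.0%), so that 55.6% of the members rose. The 6 called genes were MVD, LSS, DHCR7, SREBF1, SREBF2 and SCD. In sgKDM5C #5/sgKDM5D #4, by contrast, 0 of 27 were called higher (3.30% of all genes tested) and 0 called lower (3.87%), and at an adjusted p under 0.05 0 rose (14.5%) and 4 fell (14.4%). The median log2 fold change of the 27 genes was 0.27 in sgKDM5C #4, 0.05 in sgKDM5C #5, 0.29 in sgKDM5D #2 and 0.08 in sgKDM5D #4. It was 0.03, 0.09, 0.52 and -0.11 in sgKDM5C #4/sgKDM5D #2, sgKDM5C #4/sgKDM5D #4, sgKDM5C #5/sgKDM5D #2 and sgKDM5C #5/sgKDM5D #4. The median over all tested genes lay between -0.01 and 0.02. The sign of 3 of these medians rested on single libraries. That of sgKDM5C #5 was -0.19 without its replicate 1 and -0.0027 without replicate 1 of sgCtrl, that of sgKDM5D #4 was -0.05 without its replicate 3, and that of sgKDM5C #4/sgKDM5D #2 was -0.0048 without replicate 1 of sgCtrl. In sgKDM5C #4/sgKDM5D #4 the median was 0.39 and 9 genes rose without its replicate 1, and the median was 0.02 without its replicate 2. In sgKDM5C #5/sgKDM5D #4 it stayed negative, between -0.32 without its replicate 3 and -0.06 without its replicate 2, and 2 to 6 genes fell. In sgKDM5C #5/sgKDM5D #2 it stayed between 0.45 and 0.59, and 13 to 16 genes rose, whichever library was left out. These 8 comparisons share the sgCtrl libraries and are not independent of each other. In bulk libraries, fewer cells that express a gene and less of its RNA per cell cannot be told apart.

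**Figure D2:**
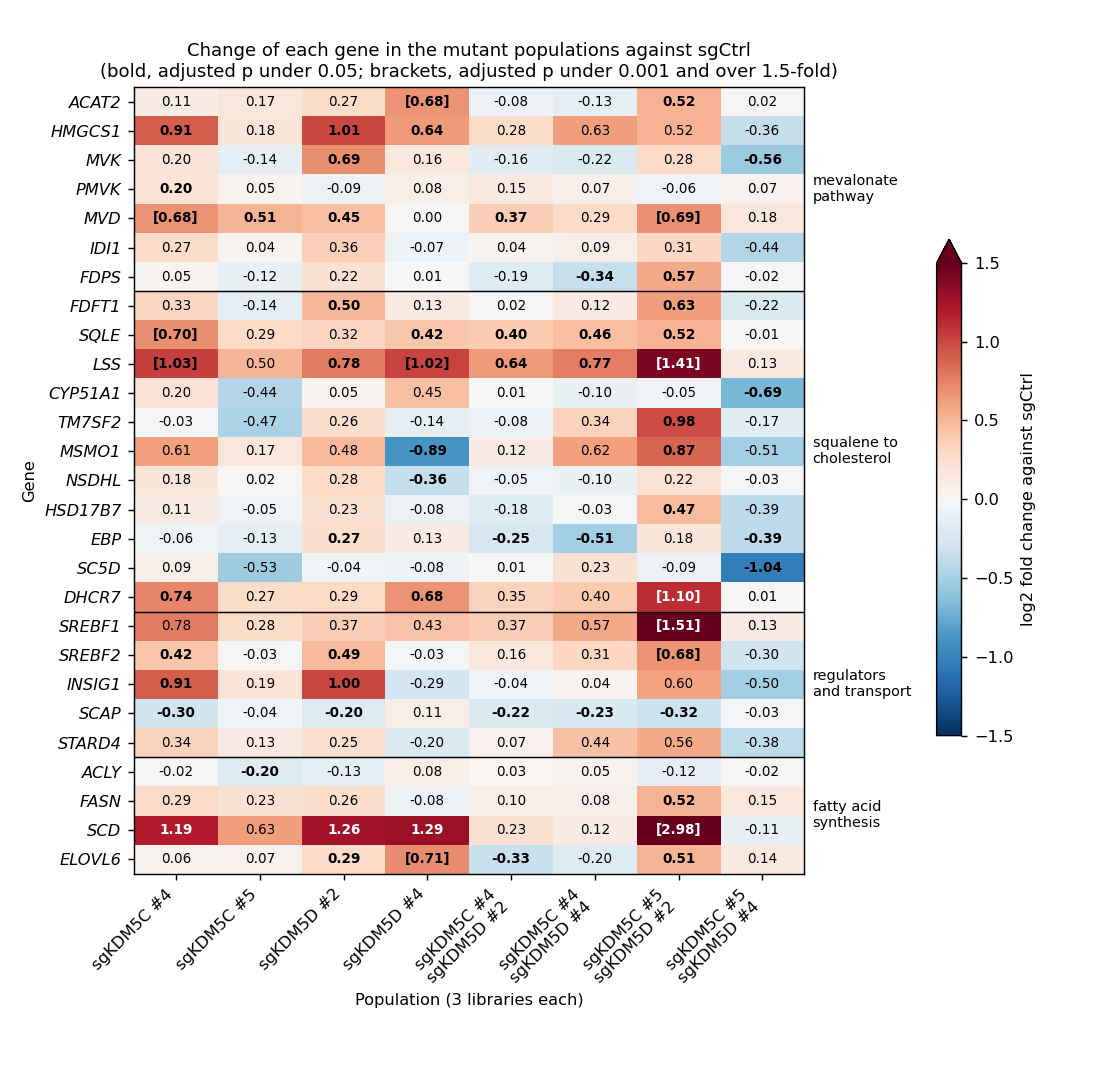
Log2 fold change of each gene (rows, grouped by role) in each mutant population (columns) against sgCtrl, with values in the cells, from 3 libraries per population. Bold values have an adjusted p under 0.05, bracketed values an adjusted p under 0.001 and over 1.5-fold. The column of sgKDM5C #5/sgKDM5D #2 is red for most genes, with SCD at 2.98, while that of sgKDM5C #5/sgKDM5D #4 has 4 bold values, all negative.

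Counts of 0 called genes by the quasi-likelihood test of edgeR did not mean that no gene had a small p. At an unadjusted p under 0.05 there were 5 of the 27 in sgKDM5C #5, 13 in sgKDM5D #2, 7 in sgKDM5C #4/sgKDM5D #2, 11 in sgKDM5C #4/sgKDM5D #4 and 6 in sgKDM5C #5/sgKDM5D #4. The share of all tested genes with an unadjusted p under 0.05 is not given, here or below. Such counts therefore do not set the members apart from other genes. With DESeq2 the called counts were 0, 1, 0, 0 and 1, the single genes being MVK in sgKDM5D #2 and SC5D in sgKDM5C #5/sgKDM5D #4. The counts in sgKDM5C #4 and sgKDM5D #4 turned on single libraries. Without replicate 1 of sgCtrl or replicate 2 of sgKDM5C #4 0 genes were called in sgKDM5C #4, and without replicate 2 of sgCtrl or replicate 3 of sgKDM5C #4 1 was. In sgKDM5D #4 1 gene was called without replicate 2 of sgCtrl or without replicate 3 of sgKDM5D #4. In sgKDM5C #5/sgKDM5D #2 the count stayed between 4 and 8 whichever library was left out. Without the 4 libraries that stood apart, 1 gene (SQLE) was called in sgKDM5C #4, 2 genes (LSS and ELOVL6) in sgKDM5D #4 and 4 genes (MVD, LSS, DHCR7 and SCD) in sgKDM5C #5/sgKDM5D #2.

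Among the 7 genes of the mevalonate pathway, MVD was the gene called most often. It encodes mevalonate diphosphate decarboxylase, the last of the enzymes that act on mevalonate itself (ENSG00000167508; chr16:88718343-88729569, minus strand in GRCh37). The 3 sgCtrl libraries held 62.2, 62.2 and 66.5 CPM. MVD was at 95.9, 106 and 103 CPM in sgKDM5C #4, 109, 84.7 and 78.3 in sgKDM5C #5, 78.8, 96.2 and 85.3 in sgKDM5D #2 and 51.2, 59.4 and 80.1 in sgKDM5D #4. It was at 76.4, 78.8 and 91.9 CPM in sgKDM5C #4/sgKDM5D #2, 63.5, 90.4 and 79.2 in sgKDM5C #4/sgKDM5D #4, 102, 103 and 103 in sgKDM5C #5/sgKDM5D #2 and 66.6, 70.5 and 78.4 in sgKDM5C #5/sgKDM5D #4. All libraries of sgKDM5C #4, sgKDM5C #5, sgKDM5D #2, sgKDM5C #4/sgKDM5D #2 and sgKDM5C #5/sgKDM5D #2 lay above every sgCtrl library, and those of sgKDM5C #5/sgKDM5D #4 did so narrowly, while those of sgKDM5D #4 and sgKDM5C #4/sgKDM5D #4 overlapped with sgCtrl. MVD was called in sgKDM5C #4 with a log2 fold change of 0.68 (SE 0.13, adjusted p = 4.18e-04) and in sgKDM5C #5/sgKDM5D #2 with 0.69 (SE 0.13, adjusted p = 1.50e-04). The 50 nearest genes on the chromosome moved with it, with a median of 0.23 in sgKDM5C #4 and 0.20 in sgKDM5C #5/sgKDM5D #2. After that median was subtracted, the adjusted p was 0.0155 and 0.00394, so that neither change was still called.

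The other mevalonate genes were more variable. HMGCS1, the synthase that makes HMG-CoA, rose in sgKDM5C #4 by 0.91, in sgKDM5D #2 by 1.01 and in sgKDM5D #4 by 0.64 on the log2 scale, with adjusted p of 0.00880, 0.00518 and 0.0373. It was not called in any population. Its level was 133 ± 24.9 CPM in sgCtrl and 267 ± 17.6 in sgKDM5D #2 (SD, n = 3). ACAT2, the cytosolic thiolase of the first step, was called in sgKDM5D #4 with 0.68 (SE 0.13, adjusted p = 1.32e-04) and rose in sgKDM5C #5/sgKDM5D #2 by 0.52. It overlaps an antisense gene, TCP1, whose reads cannot be told apart if strand was not used in counting, and in sgKDM5D #4 the median of its neighbours was 0.14; with that subtracted its adjusted p was 0.00201. MVK, mevalonate kinase, rose in sgKDM5D #2 (0.69, adjusted p = 0.00472) and fell in sgKDM5C #5/sgKDM5D #4 (-0.56, adjusted p = 0.0177). PMVK, the kinase after it, moved by no more than 0.20 in any population, and rose by that amount in sgKDM5C #4. FDPS, which makes farnesyl diphosphate, rose in sgKDM5C #5/sgKDM5D #2 (0.57) and fell in sgKDM5C #4/sgKDM5D #4 (-0.34). IDI1, the isopentenyl diphosphate isomerase, did not pass the test in any of the 8 populations, with values from -0.44 to 0.36. HMGCS1, ACAT2, MVK, FDPS and IDI1 are described here after their values were seen.

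LSS was called in more populations than any other gene of the pathway. It encodes lanosterol synthase, which closes the squalene epoxide into the first sterol ring system (ENSG00000160285; chr21:47608055-47648738, minus strand). The 3 sgCtrl libraries held 59.6, 57.7 and 71.2 CPM. Among single mutant populations, LSS was at 114, 139 and 130.5 CPM in sgKDM5C #4, 132, 73.3 and 63.2 in sgKDM5C #5, 95.7, 119.6 and 108 in sgKDM5D #2 and 104, 110.0 and 167 in sgKDM5D #4. Among double mutant populations it was at 86.9, 99.8 and 107 CPM in sgKDM5C #4/sgKDM5D #2, 87.2, 129.6 and 105 in sgKDM5C #4/sgKDM5D #4, 164, 159 and 177 in sgKDM5C #5/sgKDM5D #2 and 64.9, 64.8 and 76.9 in sgKDM5C #5/sgKDM5D #4. Every library of sgKDM5C #4, both sgKDM5D populations and the first 3 double mutant populations lay above the highest sgCtrl library, whereas sgKDM5C #5 and sgKDM5C #5/sgKDM5D #4 overlapped with sgCtrl. The call was made in sgKDM5C #4 with 1.03 (SE 0.20, adjusted p = 2.98e-04), in sgKDM5D #4 with 1.02 (SE 0.20, adjusted p = 1.02e-04) and in sgKDM5C #5/sgKDM5D #2 with 1.41 (SE 0.20, adjusted p = 2.25e-06). LSS also rose in sgKDM5D #2 (0.78), sgKDM5C #4/sgKDM5D #2 (0.64) and sgKDM5C #4/sgKDM5D #4 (0.77), and its sign was positive in all 8. The median of its neighbours stayed between -0.01 and 0.10 in the 3 populations with a call. With the neighbours subtracted, the change in sgKDM5C #4 had an adjusted p of 0.00102, and those in sgKDM5D #4 and sgKDM5C #5/sgKDM5D #2 were still called. The call in sgKDM5C #4 was also lost in edgeR's robust fit (adjusted p = 0.00201).

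The remaining genes from squalene to cholesterol moved in both directions, and those singled out here were chosen after their values were seen. SQLE, squalene epoxidase, was called in sgKDM5C #4 with 0.70 (SE 0.12, adjusted p = 1.09e-04) and rose in sgKDM5D #4, sgKDM5C #4/sgKDM5D #2, sgKDM5C #4/sgKDM5D #4 and sgKDM5C #5/sgKDM5D #2 by 0.40 to 0.52 on the log2 scale. Its 50 neighbours on chromosome 8 had a median of 0.40 in sgKDM5C #4, and the remaining change of 0.30 had an adjusted p of 0.0803. DHCR7, the reductase of the last step, was called in sgKDM5C #5/sgKDM5D #2 with 1.1 (SE 0.19, adjusted p = 3.59e-05), and rose in sgKDM5C #4 (0.74) and sgKDM5D #4 (0.68). FDFT1, squalene synthase, rose in sgKDM5D #2 (0.50) and sgKDM5C #5/sgKDM5D #2 (0.63). TM7SF2 and HSD17B7 rose in sgKDM5C #5/sgKDM5D #2, by 0.98 and 0.47, and passed the test in none of the other 7 populations. HSD17B7 has near-identical copies in the genome and its counts are uncertain for that reason.

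Falls were found in 5 of these genes. EBP fell in sgKDM5C #4/sgKDM5D #2 (-0.25), sgKDM5C #4/sgKDM5D #4 (-0.51, adjusted p = 3.31e-05) and sgKDM5C #5/sgKDM5D #4 (-0.39), and rose in sgKDM5D #2 (0.27). SC5D, a sterol desaturase, fell in sgKDM5C #5/sgKDM5D #4 with -1.04 (SE 0.24, adjusted p = 0.00149), a population in which its 50 neighbours had a median of -0.60. CYP51A1, the lanosterol demethylase, fell there as well (-0.69), and had 3306 counts over all 27 libraries and overlaps other genes. MSMO1, a methyl sterol oxidase, fell in sgKDM5D #4 (-0.89, adjusted p = 0.00672) and rose in sgKDM5C #5/sgKDM5D #2 (0.87, adjusted p = 0.00765). NSDHL, the dehydrogenase that acts after it, fell in sgKDM5D #4 (-0.36). In sgKDM5D #4 the neighbours of MSMO1 on chromosome 4 had a median of -0.61 and those of NSDHL on chromosome X one of -0.46. With the median of the neighbours subtracted, 2 of the 27 genes fell in sgKDM5C #5/sgKDM5D #4, in place of 4, and 2 rose, in place of 0. In sgKDM5D #4 1 fell, in place of 2, and 8 rose, in place of 7. The cause of the shift of the neighbouring genes was not tested.

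Among the regulators, SREBF1 and SREBF2 were called, both in sgKDM5C #5/sgKDM5D #2. SREBF1 encodes SREBP-1, the factor named for fatty acid genes (ENSG00000072310; chr17:17713713-17740316, minus strand), and it hosts the microRNA gene MIR33B. Its sgCtrl libraries held 51.8, 52.8 and 70.5 CPM. SREBF1 was at 95.1, 112 and 93.7 CPM in sgKDM5C #4, 115, 55.0 and 43.8 in sgKDM5C #5, 69.0, 86.9 and 70.4 in sgKDM5D #2 and 52.7, 62.1 and 121 in sgKDM5D #4. It was at 67.5, 78.0 and 81.4 CPM in sgKDM5C #4/sgKDM5D #2, 47.5, 116 and 95.9 in sgKDM5C #4/sgKDM5D #4, 174, 179 and 147 in sgKDM5C #5/sgKDM5D #2 and 59.6, 53.0 and 78.3 in sgKDM5C #5/sgKDM5D #4. The libraries of sgKDM5C #5/sgKDM5D #2 and sgKDM5C #4 lay above all sgCtrl libraries, and each of the other populations overlapped with sgCtrl. The log2 fold change in sgKDM5C #5/sgKDM5D #2 was 1.51 (SE 0.30, adjusted p = 1.97e-04), while that in sgKDM5C #4, 0.78 (SE 0.30, adjusted p = 0.0563), did not pass the test. Without the 4 libraries that stood apart SREBF1 in sgKDM5C #5/sgKDM5D #2 was no longer called (1.46, adjusted p = 0.00137). The call was also lost in edgeR's robust fit (adjusted p = 0.00180), and without replicate 1 or 2 of sgCtrl or replicate 1 or 2 of sgKDM5C #5/sgKDM5D #2.

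SREBF2 encodes SREBP-2, the factor named for cholesterol genes (ENSG00000198911; chr22:42229109-42303310, plus strand). The sgCtrl libraries held 213, 199 and 247 CPM. Its single mutant levels were 282, 308 and 290.2 CPM in sgKDM5C #4, 286, 193 and 165 in sgKDM5C #5, 302, 321 and 303 in sgKDM5D #2 and 184, 199.5 and 263 in sgKDM5D #4. Its double mutant levels were 220.3, 261 and 256 CPM in sgKDM5C #4/sgKDM5D #2, 228, 313 and 274 in sgKDM5C #4/sgKDM5D #4, 346, 367 and 343 in sgKDM5C #5/sgKDM5D #2 and 172, 163 and 199 in sgKDM5C #5/sgKDM5D #4. SREBF2 was above all sgCtrl libraries in sgKDM5C #4, sgKDM5D #2 and sgKDM5C #5/sgKDM5D #2, the populations in which it rose, and below all of them in sgKDM5C #5/sgKDM5D #4, where the change of -0.30 (adjusted p = 0.124) did not pass the test. The 3 rises were 0.42 (adjusted p = 0.0369), 0.49 (adjusted p = 0.0162) and 0.68 (adjusted p = 4.56e-04), the last of which was called. That call was lost without the 4 libraries that stood apart (0.63, adjusted p = 0.00302), in edgeR's robust fit (adjusted p = 0.00164), and without replicate 1 or 2 of sgCtrl, or without replicate 1, 2 or 3 of sgKDM5C #5/sgKDM5D #2.

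INSIG1, which retains SCAP in the endoplasmic reticulum and is itself a target of the SREBPs, was at 113, 131 and 158 CPM in sgCtrl (ENSG00000186480; chr7:155089486-155101945, plus strand). It was at 209, 290.2 and 255 CPM in sgKDM5C #4, 246, 124 and 89.8 in sgKDM5C #5, 254, 290.0 and 258 in sgKDM5D #2 and 73.8, 85.7 and 169 in sgKDM5D #4. The double mutant libraries held 131, 131 and 128 CPM in sgKDM5C #4/sgKDM5D #2, 55.7, 189 and 169 in sgKDM5C #4/sgKDM5D #4, 189.8, 170.3 and 248 in sgKDM5C #5/sgKDM5D #2 and 93.4, 77.2 and 112 in sgKDM5C #5/sgKDM5D #4. INSIG1 lay above all sgCtrl libraries in sgKDM5C #4, sgKDM5D #2 and sgKDM5C #5/sgKDM5D #2 and below them in sgKDM5C #5/sgKDM5D #4. It rose in sgKDM5C #4 (0.91, adjusted p = 0.0469) and sgKDM5D #2 (1.0, adjusted p = 0.0313), while sgKDM5C #5/sgKDM5D #2 (0.60, adjusted p = 0.147) did not pass the test. The 3 libraries of sgKDM5C #4/sgKDM5D #2 were almost equal, whereas those of sgKDM5C #4/sgKDM5D #4 differed 3.40-fold.

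SCAP, the escort protein, fell in 5 populations and rose in none (ENSG00000114650; chr3:47455171-47518616, minus strand). The sgCtrl libraries held 93.2, 84.1 and 83.1 CPM. SCAP was at 73.4, 69.5 and 68.8 CPM in sgKDM5C #4, 84.2, 83.7 and 85.1 in sgKDM5C #5, 70.6, 80.3 and 76.6 in sgKDM5D #2 and 93.8, 94.1 and 92.2 in sgKDM5D #4. It was at 72.8, 76.9 and 73.6 CPM in sgKDM5C #4/sgKDM5D #2, 74.5, 73.2 and 74.6 in sgKDM5C #4/sgKDM5D #4, 69.5, 75.3 and 64.1 in sgKDM5C #5/sgKDM5D #2 and 83.6, 87.5 and 83.7 in sgKDM5C #5/sgKDM5D #4. Every library of sgKDM5C #4, sgKDM5D #2, sgKDM5C #4/sgKDM5D #2, sgKDM5C #4/sgKDM5D #4 and sgKDM5C #5/sgKDM5D #2 lay below the lowest sgCtrl library. SCAP fell in these 5 populations, with log2 fold changes from -0.20 to -0.32, with its smallest adjusted p in sgKDM5C #5/sgKDM5D #2 (1.87e-04). None of these falls reached 1.5-fold. STARD4, a carrier of cholesterol through the cytosol, did not pass the test in any population.

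**Figure D3:**
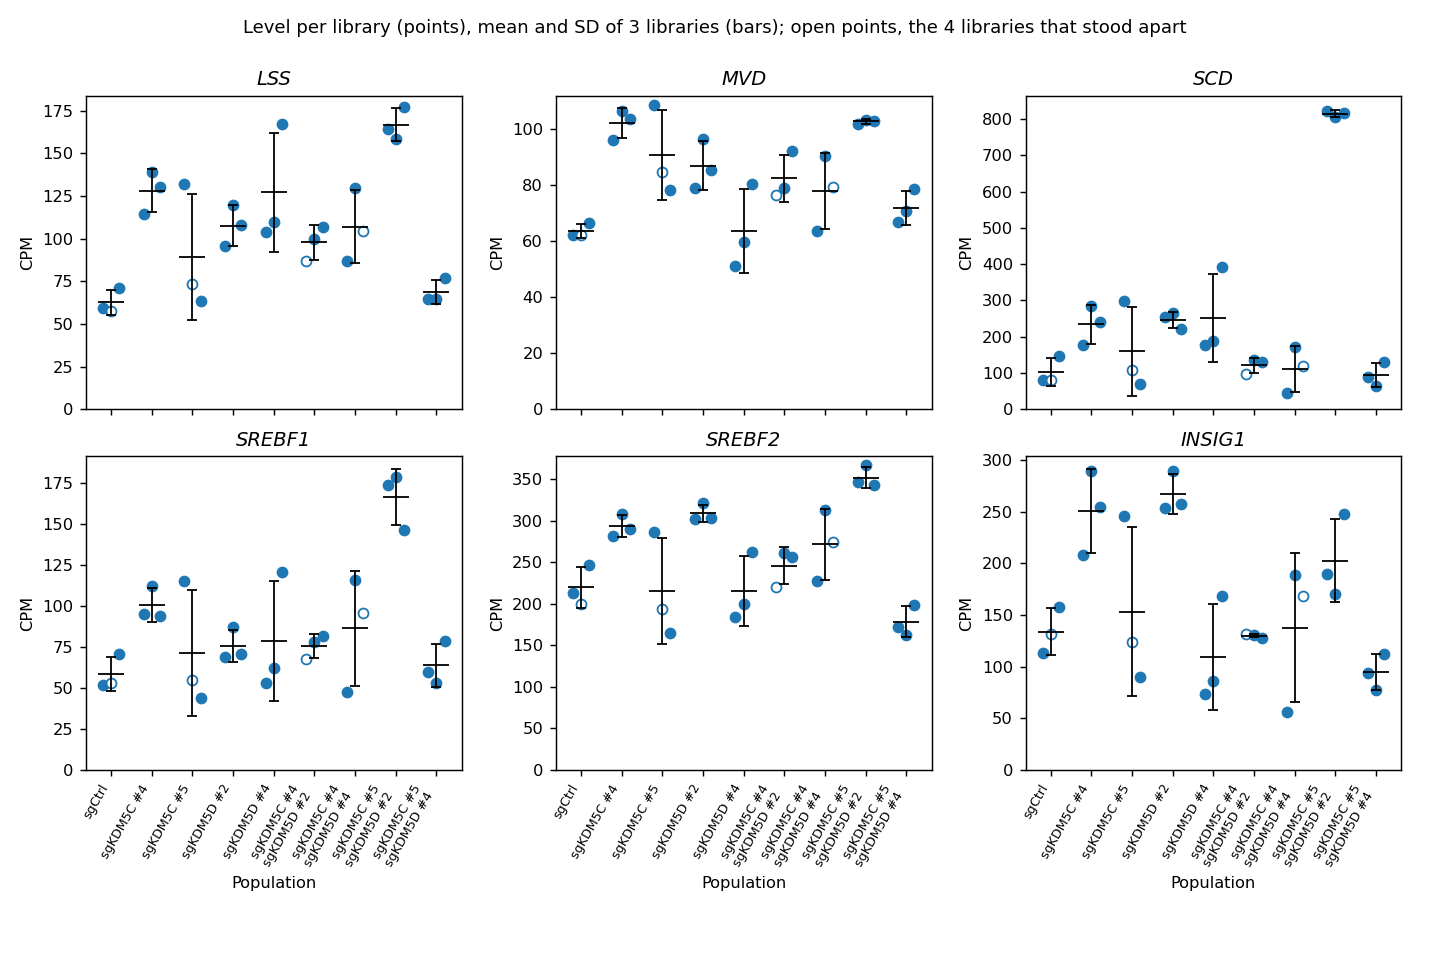
CPM of 6 genes (vertical axes, from 0) in each of the 27 libraries, arranged by population along the horizontal axis, with the mean and SD of 3 libraries as bars. Open points mark the 4 libraries that stood apart from their populations. The SCD libraries of sgKDM5C #5/sgKDM5D #2 sit between 804 and 821 CPM, above every other library.

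The fatty acid genes held the largest change among the 27 genes and 8 populations. SCD, stearoyl-CoA desaturase, makes the monounsaturated oleate and palmitoleate (ENSG00000099194; chr10:102106990-102124583, plus strand) and was singled out after its values were seen. It was at 81.8, 80.1 and 147 CPM in sgCtrl. The single mutant libraries held 178, 285 and 240.2 CPM in sgKDM5C #4, 299, 109.7 and 70.2 in sgKDM5C #5, 254, 265 and 222 in sgKDM5D #2 and 177, 189 and 391 in sgKDM5D #4. The double mutant libraries held 96.3, 137 and 130.1 CPM in sgKDM5C #4/sgKDM5D #2, 44.3, 170.5 and 120.4 in sgKDM5C #4/sgKDM5D #4, 821, 804 and 817 in sgKDM5C #5/sgKDM5D #2 and 89.1, 65.0 and 130.4 in sgKDM5C #5/sgKDM5D #4. sgKDM5C #4, both sgKDM5D populations and sgKDM5C #5/sgKDM5D #2 lay above all sgCtrl libraries, and the other double mutant populations overlapped with sgCtrl. The log2 fold change in sgKDM5C #5/sgKDM5D #2 was 2.98 (SE 0.44, adjusted p = 4.59e-06), a 7.92-fold rise, and it was called in every alternative fit that was run. SCD rose as well in sgKDM5C #4 (1.19, adjusted p = 0.0371), sgKDM5D #2 (1.26, adjusted p = 0.0293) and sgKDM5D #4 (1.29, adjusted p = 0.0119), without being called.

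Set against the populations that share its guides, a choice made after the values were seen, SCD in sgKDM5C #5/sgKDM5D #2 was higher than in sgKDM5C #5 by 2.36 (SE 0.43, adjusted p = 9.74e-05) and higher than in sgKDM5D #2 by 1.72 (SE 0.42, adjusted p = 0.00174). ELOVL6, the elongase that feeds SCD's substrate, was called in sgKDM5D #4 with 0.71 (SE 0.08, adjusted p = 8.80e-08). It also rose in sgKDM5D #2 (0.29) and sgKDM5C #5/sgKDM5D #2 (0.51) and fell in sgKDM5C #4/sgKDM5D #2 (-0.33). FASN rose in sgKDM5C #5/sgKDM5D #2 (0.52, adjusted p = 0.0305). ACLY moved little, with values from -0.20 to 0.08, and fell in sgKDM5C #5.

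The next question was how far populations with different guides differed. Each guide or pair of guides is 1 pool, so that the guide and the pool cannot be told apart in these comparisons. sgKDM5C #5/sgKDM5D #2 and sgKDM5C #5/sgKDM5D #4 share the sgKDM5C guide and carry different guides against KDM5D, and many of the genes were at opposite ends in them. sgKDM5C #5/sgKDM5D #2 had the highest mean of all 9 populations for 13 genes, and sgKDM5C #5/sgKDM5D #4 the lowest for 12. The matching shares over all tested genes are not given, so these 2 counts only describe the members. Compared directly, 10 of the 27 genes were called higher in sgKDM5C #5/sgKDM5D #2 (5.81% of all genes tested) and 0 lower (2.89%). At an adjusted p under 0.05, 22 were higher (17.8%) and 1, SCAP, was lower (19.1%). The median log2 difference of the 27 was 0.84, against 0.00 over all genes. The called genes were MVK, FDPS, FDFT1, LSS, MSMO1, HSD17B7, DHCR7, SREBF1, SREBF2 and SCD. SCD differed by 3.10 (SE 0.44, adjusted p = 4.40e-06), LSS by 1.27, SREBF1 by 1.39 and MSMO1 by 1.38. The count called was 5 without replicate 3 of sgKDM5C #5/sgKDM5D #2 or replicate 2 of sgKDM5C #5/sgKDM5D #4 and 6 without replicate 1 of sgKDM5C #5/sgKDM5D #4, and at least 19 stayed higher at an adjusted p under 0.05 whichever of the 6 libraries was left out. This comparison was added after the values were seen. The check against neighbouring genes is not given for it. Against sgCtrl, the medians of the members' neighbours ran from -0.50 to 0.47 in sgKDM5C #5/sgKDM5D #2 and from -0.60 to 0.45 in sgKDM5C #5/sgKDM5D #4.

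The matching pair with the other sgKDM5C guide gave fewer calls. Between sgKDM5C #4/sgKDM5D #2 and sgKDM5C #4/sgKDM5D #4, 0 genes were called higher in the former (0.981%) and 0 lower (1.70%), and at an adjusted p under 0.05 1, EBP, was higher (7.85%) and 0 lower (6.62%). The median difference was -0.05, but it was 0.04 without replicate 2 of sgKDM5C #4/sgKDM5D #4 and -0.24, with 3 of 27 positive, without its replicate 1. With 1 of the 6 libraries left out, 0 or 1 gene was higher and 0 or 1 lower at an adjusted p under 0.05. Each of these populations holds 1 of the 4 libraries that stood apart. Whether the 2 pairs differ from each other was not tested as a difference of differences.

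Between the single sgKDM5D populations, 0 genes were called higher in sgKDM5D #4 (11.7%) and 2 lower (9.10%), and at an adjusted p under 0.05 5 were higher (26.8%) and 6 lower (25%). These shares did not exceed those of all genes. The called genes were MSMO1, at 107, 98.3 and 96.3 CPM in sgKDM5D #2 and 33.4, 38.7 and 44.7 in sgKDM5D #4, and NSDHL, at 68.2, 71.3 and 72.7 and 41.7, 41.3 and 53.2 CPM. For both the libraries of the 2 populations did not overlap. The log2 differences were -1.37 (SE 0.26, adjusted p = 9.49e-05) and -0.64 (SE 0.12, adjusted p = 1.03e-04). The neighbours of MSMO1 differed by a median of -0.59 and those of NSDHL by -0.48, and neither gene was called once this was subtracted. 0 members were called by edgeR without replicate 1 of sgKDM5D #4, and 6 were without its replicate 3.

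Between the single sgKDM5C populations, 0 genes were called higher in sgKDM5C #5 (0.740%) and 0 lower (2.97%). At an adjusted p under 0.05 1, SCAP, was higher in sgKDM5C #5 (6.70%) and 4, HMGCS1, SQLE, CYP51A1 and SREBF2, were lower (9.53%). At an unadjusted p under 0.05 there were 12 of the 27, and DESeq2 called 0. The sign was negative for 24 of 27 genes, with a median of -0.33 against 0.03 over all genes. The 4 that were lower became 12 without replicate 1 of sgKDM5C #5 and 0 or 1 without any 1 of the other libraries of these 2 populations, and stayed between 2 and 7 without a library of another population. Without replicate 1 of sgKDM5C #5 2 genes (LSS and SREBF2) were called lower, and without the 4 libraries that stood apart 1 gene (SC5D) was.

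Averaged over the guides, the double mutant populations had 0 genes called higher than in the sgKDM5D populations (6.52%) and 1 called lower (6.44%), with 1 higher (25%) and 7 lower (27.9%) at an adjusted p under 0.05. The called gene was MVK with -0.59 (SE 0.10, adjusted p = 2.81e-05); it was no longer called in 16 of the 27 fits that each left out 1 library, or without the 4 libraries that stood apart. EBP (-0.44, adjusted p = 5.11e-08) and ELOVL6 (-0.47, adjusted p = 1.50e-08) had smaller p and changes below 1.5-fold. Against the sgKDM5C populations, 0 were called higher (1.27%) and 0 lower (0.347%), and 1, TM7SF2, was higher (8.06%) and 0 lower (7.73%) at an adjusted p under 0.05. At an unadjusted p under 0.05 there were 6, and DESeq2 called 0.

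The interaction, double minus both singles plus sgCtrl, asks whether the 2 genotypes add up on the log2 scale. Here 0 genes were called above additivity (3.21%) and 0 below (3.67%). At an adjusted p under 0.05 0 were above (12.4%) and 9 below (14.1%), namely ACAT2, HMGCS1, MVK, MVD, SQLE, LSS, EBP, SCD and ELOVL6. The largest of these were SCD (-1.38, adjusted p = 0.0220) and HMGCS1 (-1.11, adjusted p = 0.00294). These are averages over the 4 double mutant populations, and the populations did not all share their sign. Set against its own single mutant populations, a calculation added after the values were seen, SCD was at -2.22 (adjusted p = 0.0126) in sgKDM5C #4/sgKDM5D #2, -2.36 (adjusted p = 0.00216) in sgKDM5C #4/sgKDM5D #4 and -2.03 (adjusted p = 0.00743) in sgKDM5C #5/sgKDM5D #4. In sgKDM5C #5/sgKDM5D #2 it was positive, at 1.09 (SE 0.58, adjusted p = 0.193), and did not pass the test. ACAT2, LSS, EBP and ELOVL6 were positive in that population too, from 0.05 to 0.15, and did not pass the test either. All 9 genes were negative in each of the other 3. The 9 genes were picked by their average over these same 4 populations, so that the shared sign is partly set by that choice. HMGCS1 was negative in all 4, from -1.64 to -0.67. The share below, 33.3% of the members, was above that of all genes, and 6 to 11 were below with 1 library left out. At an unadjusted p under 0.05 there were 11, and DESeq2 called 0. Over all 9 populations, 16 of the 27 genes differed at an adjusted p under 0.001 (58.0% of all genes), with ELOVL6 (adjusted p = 2.61e-10) and EBP (adjusted p = 3.12e-08) having the smallest p. The share of the members, 59.3%, was near the share of all genes.

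Many of these genes varied widely between the replicate libraries of a population. Of the 24 with a mean log2 CPM over 4, 13 had a replicate SD above the 95th percentile (0.223 on the log2 scale) of the 7715 genes over that level, and 6 were above the 99th (0.325). Their median SD was 0.235 against 0.105. SCD varied most, with an SD of 0.603, followed by INSIG1 (0.492), SREBF1 (0.426), STARD4 (0.409), MSMO1 (0.379) and HMGCS1 (0.364). SCAP (0.0642), PMVK (0.0715) and ACLY (0.0824) were steadier than the median gene. These are descriptions, since the 27 genes share their libraries.

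**Figure D4:**
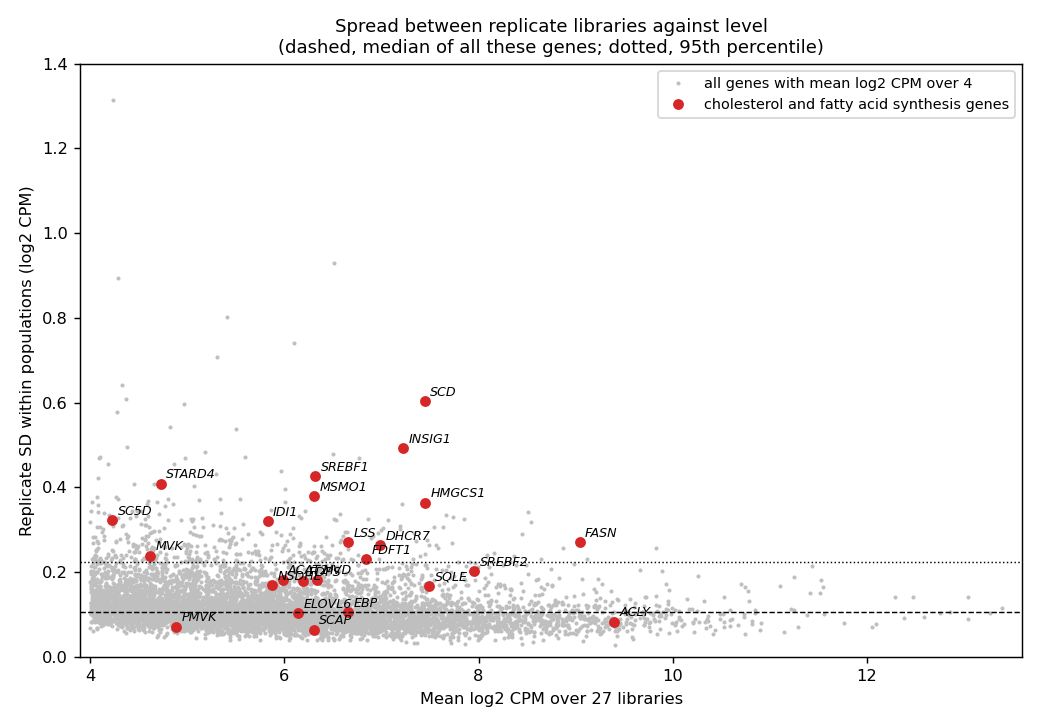
SD between replicate libraries within populations (vertical axis, log2 CPM) against the mean level over 27 libraries (horizontal axis, log2 CPM). Each grey point is 1 of the 7715 genes with a mean over 4, and red points are the synthesis genes; the dashed line is the median and the dotted line the 95th percentile of the grey points. SCD, INSIG1 and SREBF1 stand far above the dotted line and SCAP below the dashed one.

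Much of this spread was shared, and the same library was often high for most of the genes at once. Replicate 1 of sgKDM5C #5 was the highest of its 3 libraries for 22 of the 27 genes, against 35.0% of all genes with a mean log2 CPM over 4. The 27 include CYP51A1, TM7SF2 and HSD17B7, whose means lay under that level. Only some libraries with uneven counts are named. Replicate 3 of sgKDM5D #4 was highest for 23 (32.9%), replicate 2 of sgKDM5C #4 for 23 (31.3%) and replicate 2 of sgKDM5C #4/sgKDM5D #4 for 21 (30.0%). Replicate 1 of sgKDM5C #4/sgKDM5D #4 was lowest for 23 genes, against 33.2% of all genes, and replicate 1 of sgKDM5C #4 for 21 (40.0%). In sgCtrl, replicate 3 was highest for 18 (26.1%), so that changes against sgCtrl carry this library as well. The range was wide within a single population: SCD differed 4.26-fold between the libraries of sgKDM5C #5 and 3.85-fold between those of sgKDM5C #4/sgKDM5D #4. The labels give no batch for these libraries, and what set them apart was not tested.

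Some members deviated in the same direction in the 4 libraries that stood apart. SC5D, STARD4 and IDI1 were the highest of their population in all 4 of these libraries, by 0.40 to 0.50, 0.31 to 0.62 and 0.17 to 0.48 above the population mean on the log2 scale. MSMO1 was 0.18 to 0.50 above in the 4 libraries. FDPS and ACAT2 lay below the mean in all 4, with deviations of -0.32 to -0.14 and -0.31 to -0.06. These values were singled out after they were seen. With a term for the 4 libraries in the fit, added after seeing the data, SC5D was called lower in sgKDM5C #5/sgKDM5D #4, and MSMO1 and STARD4 were called higher in sgKDM5C #5/sgKDM5D #2 beside the 6 genes already named.

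**Figure D5:**
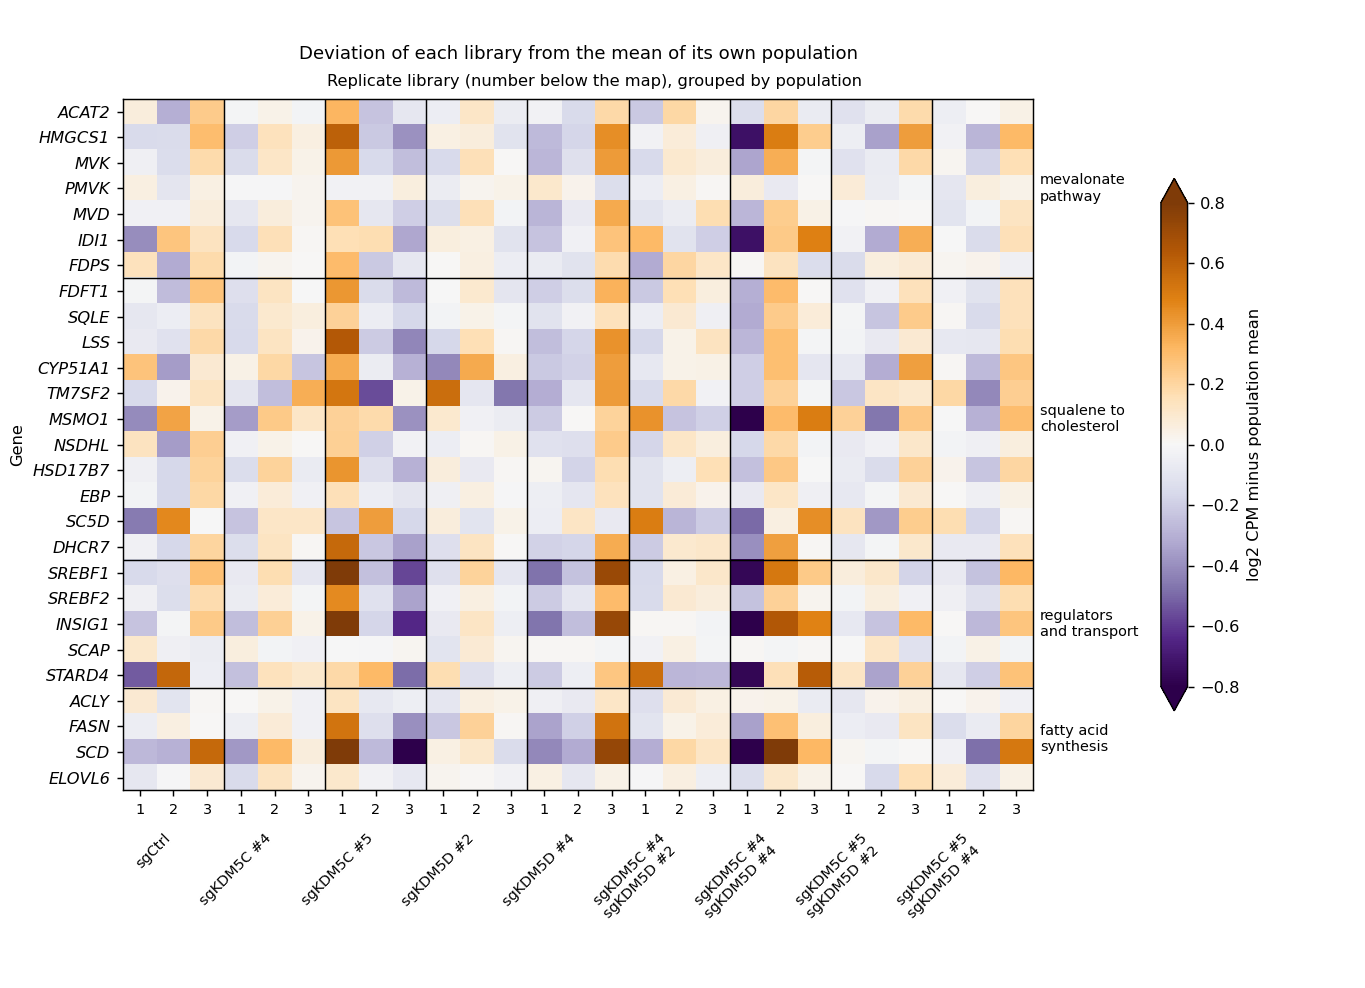
Deviation of each library (columns, grouped by population) from the mean of its own population, in log2 CPM (colour), for the 27 genes (rows). Most of a column is often orange or purple together, such as replicate 1 of sgKDM5C #5 (orange) and replicate 1 of sgKDM5C #4/sgKDM5D #4 (purple), while the rows of SCAP, PMVK and ACLY stay near white.

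The promoters of these genes were searched for the motifs that the SREBPs and their partners are known to use. The windows, taken from RefSeq on GRCh38.p14, run from 250 bases before to 50 bases after each annotated start, and 23 of the 27 genes had at least 1 window (29 windows in all). ACAT2, FDFT1, SQLE and FASN had none in the table. The sterol regulatory element TCACNCCAC, searched on both strands and exactly as spelled, was found in the window of 1 gene, SREBF2, and in 1.13% of all 35116 windows. All 35116 windows were used whether or not the gene was expressed in these cells. The NF-Y box CCAAT was found for 18 genes and in 72.4% of the 29 windows of the members, against 34.6% of all windows. The Sp1 box GGGCGG was found for 22 genes and in 93.1% of the 29 windows of the members, against 45% of all. The E-box CACGTG was found for 4 genes, INSIG1, LSS, SC5D and SCAP, and in 17.2% of the windows of the members, against 7.26% of all. A match describes the letters of the window and is no evidence of a site, and none says only that these letters are not in this window.

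The windows of LSS and MVD, called in the most populations, of SCD with the largest change, and of SREBF2 with the sterol regulatory element are printed below in lower case on the strand of the gene, with matches to the NF-Y box, the Sp1 box, the E-box or the sterol regulatory element in capitals.
LSS (chr21:46228725-46229024, minus strand): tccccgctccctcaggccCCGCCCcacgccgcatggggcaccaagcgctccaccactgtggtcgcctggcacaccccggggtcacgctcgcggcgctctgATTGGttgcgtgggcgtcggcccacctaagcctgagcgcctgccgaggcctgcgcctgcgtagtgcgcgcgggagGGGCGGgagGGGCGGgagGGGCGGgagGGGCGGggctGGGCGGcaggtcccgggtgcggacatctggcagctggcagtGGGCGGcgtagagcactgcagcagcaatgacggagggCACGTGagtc
MVD (chr16:88663042-88663341, minus strand): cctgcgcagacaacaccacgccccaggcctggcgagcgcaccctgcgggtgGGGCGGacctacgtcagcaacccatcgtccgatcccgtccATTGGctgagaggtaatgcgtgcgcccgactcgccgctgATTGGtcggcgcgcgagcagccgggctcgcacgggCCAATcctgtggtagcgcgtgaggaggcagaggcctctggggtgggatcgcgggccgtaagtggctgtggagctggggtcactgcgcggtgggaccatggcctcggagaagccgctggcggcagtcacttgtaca
SCD (chr10:100346983-100347282, plus strand): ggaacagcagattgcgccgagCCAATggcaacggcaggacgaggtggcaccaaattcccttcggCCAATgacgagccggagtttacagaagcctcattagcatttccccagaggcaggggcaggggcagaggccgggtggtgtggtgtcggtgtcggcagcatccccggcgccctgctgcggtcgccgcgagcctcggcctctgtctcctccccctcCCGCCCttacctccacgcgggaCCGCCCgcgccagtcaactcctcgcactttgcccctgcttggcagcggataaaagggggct
SREBF2 (chr22:41832855-41833154, plus strand): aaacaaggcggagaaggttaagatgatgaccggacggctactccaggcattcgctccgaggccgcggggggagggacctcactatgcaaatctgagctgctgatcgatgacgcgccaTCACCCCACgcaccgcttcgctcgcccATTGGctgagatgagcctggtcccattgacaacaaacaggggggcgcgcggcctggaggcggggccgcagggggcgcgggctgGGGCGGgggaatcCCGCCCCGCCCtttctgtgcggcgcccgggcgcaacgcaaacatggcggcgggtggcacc
The LSS window held 7 Sp1 boxes, most of them in a repeated run, 1 NF-Y box and 1 E-box. MVD held 3 NF-Y boxes and SCD 2. In SREBF2 the sterol regulatory element began 133 bases before the start.

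Other lipid genes were read from lists outside the 28. Of 17 further genes linked to the SREBPs, 4 were called higher (7.92% of all genes) and 2 lower (4.77%) in sgKDM5C #5/sgKDM5D #2, with a list median of 0.32 against -0.01 over all genes. RDH11 was among those called higher, and GPAM and ACACB were those called lower. The other called genes were the desaturases FADS1, at 0.79 (adjusted p = 9.73e-07), and FADS2, at 1.20 (adjusted p = 8.43e-07), as well as the phosphatidate phosphatase LPIN1 (1.07). In the other 7 populations 0 to 1 were called higher (1.89% to 10.7% of all genes) and 0 to 2 lower (1.34% to 7.44%). ACACB, the mitochondrial acetyl-CoA carboxylase, was called lower in sgKDM5C #5, sgKDM5D #2, sgKDM5C #4/sgKDM5D #4, sgKDM5C #5/sgKDM5D #2 and sgKDM5C #5/sgKDM5D #4, from -0.85 to -1.47. FADS1, FADS2, LPIN1 and GPAM were named after their values were seen.

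The lipid droplet and uptake genes held the most widespread call. DGAT2, which completes the synthesis of triglycerides, was called higher in 7 of the 8 populations, all but sgKDM5D #4, from 0.65 (adjusted p = 1.27e-04) in sgKDM5C #5/sgKDM5D #2 to 1.49 (adjusted p = 4.68e-10) in sgKDM5C #4/sgKDM5D #2. Its level was 7.76 ± 1.16 CPM in sgCtrl (SD, n = 3). PLIN2, which coats lipid droplets, was called higher in sgKDM5C #5/sgKDM5D #2 (1.41, adjusted p = 9.61e-13) and sgKDM5C #5/sgKDM5D #4 (0.95, adjusted p = 1.28e-09), at 281 ± 22.5 and 204 ± 7.36 CPM against 106 ± 8.14 in sgCtrl (SD, n = 3). HILPDA, an inhibitor of droplet lipolysis, was called higher in sgKDM5C #4, sgKDM5C #4/sgKDM5D #2 and sgKDM5C #5/sgKDM5D #2 and lower in sgKDM5D #4 (-0.71). Of the 10 tested genes of this list, 3 were called higher (7.92% of all genes) and 0 lower (4.77%) in sgKDM5C #5/sgKDM5D #2, with a median of 0.47 against -0.01 over all genes. In sgKDM5D #4 1 was called higher (10.7%) and 3 lower (7.44%), with a median of -0.30.

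Of 13 genes of fatty acid oxidation, 1 was called higher (10.7% of all genes) and 3 lower (7.44%) in sgKDM5D #4, and at most 2 in either direction elsewhere. Of all genes, 1.89% to 7.92% were called higher and 1.34% to 4.77% lower in those other populations. CPT1A, which admits fatty acids to the mitochondrion, was called higher in sgKDM5C #5 (0.82) and sgKDM5D #2 (1.23) and lower in sgKDM5D #4 (-2.19, adjusted p = 2.73e-10), where its mean was 2.47 against 11.3 CPM in sgCtrl. ACAA2, the last enzyme of the mitochondrial cycle, was called lower in sgKDM5C #5, sgKDM5D #4 and sgKDM5C #5/sgKDM5D #4, and ACADS in sgKDM5C #5 and sgKDM5C #5/sgKDM5D #4. Among the 10 tested genes of sterol efflux, storage and turnover, 2 were called higher (10.7% of all genes) and 1 lower (7.44%) in sgKDM5D #4. In sgKDM5C #5/sgKDM5D #2 1 was called higher (7.92%) and 1 lower (4.77%). In the other populations 0 were called higher (1.89% to 5.86%) and 0 lower (1.34% to 3.87%). NPC2, which moves cholesterol out of lysosomes, was called higher in sgKDM5D #4 (0.76) and sgKDM5C #5/sgKDM5D #2 (0.79). The genes called lower were SOAT1 in sgKDM5D #4 (-0.81) and NCEH1 in sgKDM5C #5/sgKDM5D #2 (-1.47). Of 12 genes that draw on the isoprenoid branches, 3, PDSS2, COQ2 and FNTB, were called higher in sgKDM5D #4. The share of all genes there, 10.7%, was the highest such share of the 8 populations. In the other 7 populations edgeR called 0 higher (1.89% to 7.92% of all genes) and 0 lower (1.34% to 4.77%). At an adjusted p under 0.05, 0 to 3 rose in these 7 (9.89% to 21.5%) and 0 to 5 fell (10.6% to 23.0%). The 5 that fell were in sgKDM5C #5/sgKDM5D #2, where 0 rose and the list median was -0.19 against -0.01 over all genes. PDSS2, COQ2, FNTB, SOAT1 and NCEH1 were named after their values were seen.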

How the data were processed

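RNA was isolated from 27 samples of 786-O cells, 3 for each of 9 populations, and sequenced as paired-end, strand-specific libraries. The authors deposited 1 table of raw read counts per gene (counts, not normalized). The submitters' processing notes name Trimmomatic 0.38, STAR 2.5.2b and GRCh37, while the counting tool, its strand setting and the annotation release are not given in the sources used here. Every sample was placed in its population by its label. The 28 genes and the other gene lists were chosen with earlier results of these data known.

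Genes with at least 120 counts over the 27 libraries were kept. A negative binomial model with 1 mean per population was fitted to all 17016 of them in edgeR 4.0.16 (R 4.3.3, TMM scaling, quasi-likelihood F test), and p-values were adjusted by the method of Benjamini and Hochberg over all these genes. Each mutant population was compared with sgCtrl, the guides with each other, and the double with the single mutant populations. The comparison of sgKDM5C #5/sgKDM5D #2 with sgKDM5C #5/sgKDM5D #4, those beside it and the interaction within each pair of guides were chosen after seeing the data. Library values were named for genes called in 2 or more of the 8 populations and for SREBF1, SREBF2, INSIG1 and SCAP. Genes of the other lists were named when called in the same direction in 2 or more populations, and a few others, marked as such, after their values were seen. As a regional check, the median log2 fold change of the 50 nearest tested genes was subtracted from each gene. Replicate libraries differed beyond sampling noise (chi-square per degree of freedom 3.80 to 32.1), so that each was counted as 1 replicate. The code was tested on simulated data. Alternatives were RLE factors, other filters, a replicate block, DESeq2 1.42.0, a looser threshold, fits of only the populations compared, and leaving out each library. The libraries held 20172482 to 43383929 counts, and TM7SF2, the gene with the lowest level, 21 to 78 counts per library.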

Additional observations from a re-analysis of the deposited data

Results flagged for a closer look

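Populations with different guides differed in 12 values, by the test of the difference itself in edgeR's quasi-likelihood fit. Each guide or pair of guides is 1 pool, and the guide and the pool cannot be told apart. Between the single sgKDM5D populations, sgKDM5D #4 minus sgKDM5D #2, MSMO1 differed by -1.37 and NSDHL by -0.64 on the log2 scale, and both were called, though neither was once the median of the neighbouring genes was subtracted. Between the double mutant populations that share sgKDM5C #5, sgKDM5C #5/sgKDM5D #2 minus sgKDM5C #5/sgKDM5D #4, the log2 difference was 3.10 for SCD, 1.39 for SREBF1, 1.38 for MSMO1, 1.27 for LSS and 1.1 for DHCR7. It was 0.98 for SREBF2, 0.86 for HSD17B7, 0.85 for FDFT1, 0.84 for MVK and 0.59 for FDPS. The check against neighbouring genes is not given for these double mutant populations. MSMO1 appears in both comparisons, higher in the population with sgKDM5D #2, but in sgKDM5C #4/sgKDM5D #2 minus sgKDM5C #4/sgKDM5D #4 its log2 difference was -0.49 (adjusted p = 0.222). Groups of 3 libraries are too small for a test of outlying libraries.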

How the results depend on the processing

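None of the 12 called log2 fold changes against sgCtrl changed sign under the alternatives run. The median over the 27 genes, which has no test, did so in 3 populations: in sgKDM5C #4/sgKDM5D #2 it went from 0.03 to -0.0066 with no filter on low counts, and with single libraries left out it reached -0.19 in sgKDM5C #5, -0.05 in sgKDM5D #4 and -0.0048 in sgKDM5C #4/sgKDM5D #2. RLE factors and the replicate block kept all 14 counts of called genes within 1.5 times. So did the robust fit, chosen after seeing the data, although LSS in sgKDM5C #4 and SREBF1 and SREBF2 in sgKDM5C #5/sgKDM5D #2 lost their calls in it. With the looser threshold (adjusted p under 0.05, any size) the counts became 10 for sgKDM5C #4, 2 for sgKDM5C #5, 11 for sgKDM5D #2, 9 for sgKDM5D #4, 6 for sgKDM5C #4/sgKDM5D #2, 5 for sgKDM5C #4/sgKDM5D #4, 16 for sgKDM5C #5/sgKDM5D #2, 4 for sgKDM5C #5/sgKDM5D #4, 5 for the sgKDM5C guides, 11 for the sgKDM5D guides, 8 for double against sgKDM5D, 1 for double against sgKDM5C and 9 for the interaction. With no filter on low counts they were 9 for sgKDM5C #4, 1 for sgKDM5C #5, 5 for sgKDM5D #2, 7 for sgKDM5D #4, 1 for sgKDM5C #4/sgKDM5D #2, 3 for sgKDM5C #4/sgKDM5D #4, 10 for sgKDM5C #5/sgKDM5D #2, 3 for sgKDM5C #5/sgKDM5D #4, 3 for the sgKDM5C guides and 5 for the interaction, and 25 genes differed among the 9 populations. The shares of all genes in this and the other alternative fits, those with 1 library left out included, are not given. Such counts therefore only describe the members. The cause of the difference between the unfiltered and the main counts was not tested. With neighbouring genes removed, counts of 0 for sgKDM5C #4, 0 for the sgKDM5D guides and 0 for double against sgKDM5D were found. The filterByExpr filter gave 0 for double against sgKDM5D. A term for the 4 libraries gave 1 for sgKDM5C #5/sgKDM5D #4, 1 for the sgKDM5C guides and 0 for double against sgKDM5D, and leaving them out gave 1 for sgKDM5C #4, 1 for the sgKDM5C guides and 0 for double against sgKDM5D. Fits of only the populations compared gave 7 for sgKDM5C #4 and 3 for sgKDM5D #2, and DESeq2 gave 1 for sgKDM5D #2 and 1 for sgKDM5C #5/sgKDM5D #4.

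With each library left out in its turn, the counts were 0 to 4 for sgKDM5C #4, 0 to 0 for sgKDM5C #5, 0 to 1 for sgKDM5D #2, 1 to 4 for sgKDM5D #4, 0 to 0 for sgKDM5C #4/sgKDM5D #2, 0 to 1 for sgKDM5C #4/sgKDM5D #4, 4 to 8 for sgKDM5C #5/sgKDM5D #2, 0 to 1 for sgKDM5C #5/sgKDM5D #4, 0 to 2 for the sgKDM5C guides, 0 to 6 for the sgKDM5D guides, 0 to 1 for double against sgKDM5D, 0 to 0 for double against sgKDM5C and 0 to 1 for the interaction, and 14 to 20 genes that differed among the populations. At an adjusted p under 0.05, 0 to 3 genes rose in sgKDM5C #5 and in sgKDM5C #4/sgKDM5D #2, 1 to 4 were higher in double against sgKDM5D, and 0 to 2 higher and 0 to 3 lower in double against sgKDM5C. The numbers of replicates did not pair the samples. Of 108 pairs of same-numbered libraries, 35 correlated above 0.1, with a median r of -0.0596, and 2 libraries correlated best with their own number. With the replicate block the counts were 3 for sgKDM5C #4, 3 for sgKDM5D #4, 6 for sgKDM5C #5/sgKDM5D #2, 2 for the sgKDM5D guides and 1 for double against sgKDM5D, the same genes as without it, and 0 for the other comparisons with sgCtrl, between guides and between genotypes.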
